A study of Mus musculus with 2 samples.

Results

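The 6 genes Mir770, Mir673, Mir493, Mir337, Mir540 and Mir665 are the microRNA (miRNA) genes at the Meg3 side of the imprinted Dlk1-Dio3 region of mouse chromosome 12. They were chosen by symbol and position, by matching the Ensembl identifier of each row to GENCODE M21, and all 6 were found among the 1973 miRNA genes with a row in the deposited tables. The study sequenced small RNA, with a stated size range below 30, from total RNA of the forebrain of embryos of the strain B6NCrl at embryonic day 16.5. It holds 2 libraries, labelled biological replicates 1 and 2, each from a pool of male and female embryos, with 41 embryos given for the pool of replicate 2. Both libraries form a single group with no treatment, so no condition was compared, and a difference between the libraries is a difference between 2 pools and their preparation.

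Only the maternal copy of the Dlk1-Dio3 region expresses its long non-coding RNAs, Meg3, Rian and Mirg, and the miRNAs that lie among them, while the paternal copy expresses the protein-coding genes Dlk1, Rtl1 and Dio3. A miRNA is made from a hairpin in a longer transcript that is cut by Drosha and then by Dicer, and an arm of the hairpin is loaded into an Argonaute protein. Bases 2 to 8 of that arm, the seed, pair with target messenger RNAs and lower their output. The region is known for strong expression in the embryonic and postnatal brain.

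The mature arms of the 6 genes are shown because their seeds set the possible targets and because they show how little the genes resemble each other. They were taken from RefSeq (GRCm38.p6), which lists both arms for all 6 genes, and are written 5′ to 3′ with the seed in capitals.
miR-770-5p: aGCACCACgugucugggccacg
miR-770-3p: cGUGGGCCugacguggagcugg
miR-673-5p: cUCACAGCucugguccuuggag
miR-673-3p: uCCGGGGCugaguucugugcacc
miR-493-5p: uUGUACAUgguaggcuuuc
miR-493-3p: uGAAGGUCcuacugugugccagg
miR-337-5p: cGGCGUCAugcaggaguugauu
miR-337-3p: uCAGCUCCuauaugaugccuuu
miR-540-5p: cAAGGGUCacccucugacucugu
miR-540-3p: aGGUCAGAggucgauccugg
miR-665-5p: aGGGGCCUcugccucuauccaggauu
miR-665-3p: aCCAGGAGgcugaggucccu

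The 12 arms carried 12 different seeds, so no seed was shared within the group. For 10 arms the seed occurred in no other gene of the RefSeq table, which lists 1679 mature miRNAs. The seed of miR-673-5p also occurred in miR-6985-3p of Mir6985, which had 3 counts in replicate 1 and 0 in replicate 2. The seed of miR-540-3p also occurred in miR-6915-5p of Mir6915, which has no row among those used here. The arms were 19 to 26 bases long. Their GC content ranged from 40.9% in miR-337-3p to 72.7% in miR-770-3p, with a median of 58.4% beside 52.2% over all mature miRNAs of the table. The deposited counts are per gene, so reads of the 5p and 3p arms were not separated and no level belongs to a single arm or seed.

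The hairpins of Mir770 and Mir337, the most abundant members, are shown with both mature arms in capitals. They lie on the plus strand of GRCm38.p6 at chr12:109563692-109563785 for Mir770 and chr12:109585789-109585885 for Mir337.
Mir770: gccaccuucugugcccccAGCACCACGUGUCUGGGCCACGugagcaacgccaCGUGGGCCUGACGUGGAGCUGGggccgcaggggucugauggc
Mir337: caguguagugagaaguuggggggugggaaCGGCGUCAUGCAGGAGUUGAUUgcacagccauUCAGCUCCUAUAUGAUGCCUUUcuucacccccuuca

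The folding energy that RNAfold computed for the Mir770 hairpin was -58.2 kcal/mol, or -0.62 per base, and 3.38% of the 1005 hairpins in the RefSeq table were lower per base. The Mir337 hairpin had -49.4 kcal/mol, or -0.51 per base. The median of the 6 members was -0.53 per base, beside -0.41 over all hairpins of the table, and each member lay below that overall median. The members' hairpins also had a higher median GC content, 57.2% beside 51.7%, and the energies were not adjusted for it. Mir540, with the shortest hairpin at 67 bases, had -0.61 per base, while the least stable per base, Mir673, had -0.46. Fold stability did not follow the level of the genes, since Mir493, the least abundant member, had a lower energy per base (-0.54) than Mir337.

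All 6 genes lie on the plus strand within 22.7 kb. Mir770 (ENSMUSG00000076451.1, chromosome 12, 109563692 to 109563785) lies within Meg3, whose annotated span runs from 109541001 to 109571726. It overlapped an exon of 1 of the 11 Meg3 transcripts in GENCODE M21 and lay in an intron of 3. The other members lie outside any annotated host gene on their strand. Mir673 (ENSMUSG00000076316.1, 109571990 to 109572080) starts 264 bases past the annotated end of Meg3, and Mir493 (ENSMUSG00000077025.2, 109580233 to 109580315) starts 8507 bases past it. Mir337 (ENSMUSG00000065526.3, 109585789 to 109585885), Mir540 (ENSMUSG00000072900.1, 109586080 to 109586146) and Mir665 (ENSMUSG00000076313.1, 109586314 to 109586407) sit together within 619 bases. Another 2785 bases separate Mir665 from Rtl1, a retrotransposon-derived gene on the minus strand.

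The promoter of Meg3 is shown because the maternal transcripts of the region, Mir770 among them, are thought to start there; no file used here measures it. The window at chr12:109540746-109541045 (GRCm38.p6, plus strand, RefSeq) holds 250 bases before the RefSeq start of Meg3 at 109540996, which differs from the GENCODE start, and 50 from there on, and capitals mark the motifs searched on both strands.
Meg3 promoter: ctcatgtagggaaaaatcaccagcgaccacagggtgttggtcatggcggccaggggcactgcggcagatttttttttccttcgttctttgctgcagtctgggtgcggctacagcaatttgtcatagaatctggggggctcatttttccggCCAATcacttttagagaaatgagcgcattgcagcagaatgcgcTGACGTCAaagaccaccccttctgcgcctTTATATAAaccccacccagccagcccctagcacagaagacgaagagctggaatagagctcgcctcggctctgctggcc

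The cAMP response element TGACGTCA began at -57 from the RefSeq start, the CCAAT box at -100 and the TATA-like TATATAA at -27. On the minus strand TATATAA also matched 1 base earlier and overlapped the plus-strand match. Of the 32851 promoter windows of this length in the table, 1.79% held TGACGTCA, 37.4% held CCAAT and 3.24% held TATATAA on either strand. These are matches of letters, not measured binding sites.

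Levels are given as CPM, the counts of a gene per 1000000 gene-strand counts of all miRNA genes. The libraries held 5060112 gene-strand counts in replicate 1 and 4158686 in replicate 2, and a count of 0 allows up to 0.593 and 0.721 CPM by a limit of 3 counts. A read covers a small RNA rather than a fragment of a longer transcript, so CPM was not divided by gene length. Reads were counted, not molecules, and how well the library protocol recovers each sequence was not measured. Intervals in parentheses are exact Poisson 95% intervals and cover counting error only. The forebrain list of 9 neural miRNA genes had 8 members with 5 or more counts in each library and summed to 23314 CPM in replicate 1 and 22637 CPM in replicate 2. The lists of other cell types summed to 306 and 240 CPM for blood, 167 and 222 for myeloid cells, 176 and 143 for liver and 43.9 and 37.0 for muscle, in which Mir133a-1 was at 0, and endothelial Mir126a stood at 16611 and 18999. Multi-mapping reads are not in these counts, so genes with numbered copies, among them most of the neural list and Mir133a-1, may be counted too low. The 0 of Mir133a-1 therefore sets no upper limit, and the sums of different lists cannot be compared with each other.

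All 6 genes were detected in both libraries, with at least 133 counts in each. Together they held 10927 counts in replicate 1 and 5836 in replicate 2, which is 2159 CPM (2119 to 2200) and 1403 CPM (1368 to 1440). The mean of 1781 ± 535 CPM (SD, n = 2) is 0.178% ± 0.0535 of the gene-strand counts of all miRNA genes. Multi-mapping reads, 40.5% of all reads in replicate 1 and 43.3% in replicate 2, are not in these counts. The share is therefore not one of all miRNA reads. By mean level the members ranked between 103 and 256 of the 1973 genes with a row, of which 438 reached 5 counts in both libraries. The median of those 438 genes was 66.7 CPM, above the mean levels of Mir673 and Mir493. The members spanned a wide range, since Mir337 was 17.9-fold above Mir493 by mean CPM. In bulk tissue, fewer cells that express a gene and less RNA per cell cannot be told apart.

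Mir337, which has been reported to act on the TGF-β receptor gene Tgfbr2 in cartilage cells, was the most abundant member. It had 4062 counts in replicate 1 and 2152 in replicate 2, or 803 CPM (778 to 828) and 517 CPM (496 to 540), with a mean of 660 ± 202 CPM (SD, n = 2). Mir770, the miRNA inside Meg3, had 3719 and 1684 counts, or 735 CPM (712 to 759) and 405 CPM (386 to 425), with a mean of 570 ± 233 CPM. Replicate 1 was the higher library for both genes, and the range of Mir770 over the libraries overlapped that of Mir337.

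Mir540 had 1504 and 903 counts, or 297 CPM (282 to 313) and 217 CPM (203.2 to 232), and a mean of 257 ± 56.6 CPM (SD, n = 2). Mir665, its neighbour 167 bases away, had 1083 and 721 counts, or 214 CPM (201 to 227) and 173 CPM (161 to 187), and a mean of 194 ± 28.7 CPM. These middle members were also at their highest in replicate 1, and the highest value of Mir665 lay just below the lowest of Mir540.

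Mir673 had 348 and 243 counts, or 68.8 CPM (61.7 to 76.4) and 58.4 CPM (51.3 to 66.3), and a mean of 63.6 ± 7.31 CPM (SD, n = 2). Mir493, reported to act on the insulin-like growth factor receptor gene IGF1R in colon cancer cells, had 211 and 133 counts, or 41.7 CPM (36.3 to 47.7) and 32.0 CPM (26.8 to 37.9), and a mean of 36.8 ± 6.87 CPM. These were the least abundant members in both libraries. Their counting intervals in the libraries overlapped, while those of the other 4 members did not.

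**Figure D1:**
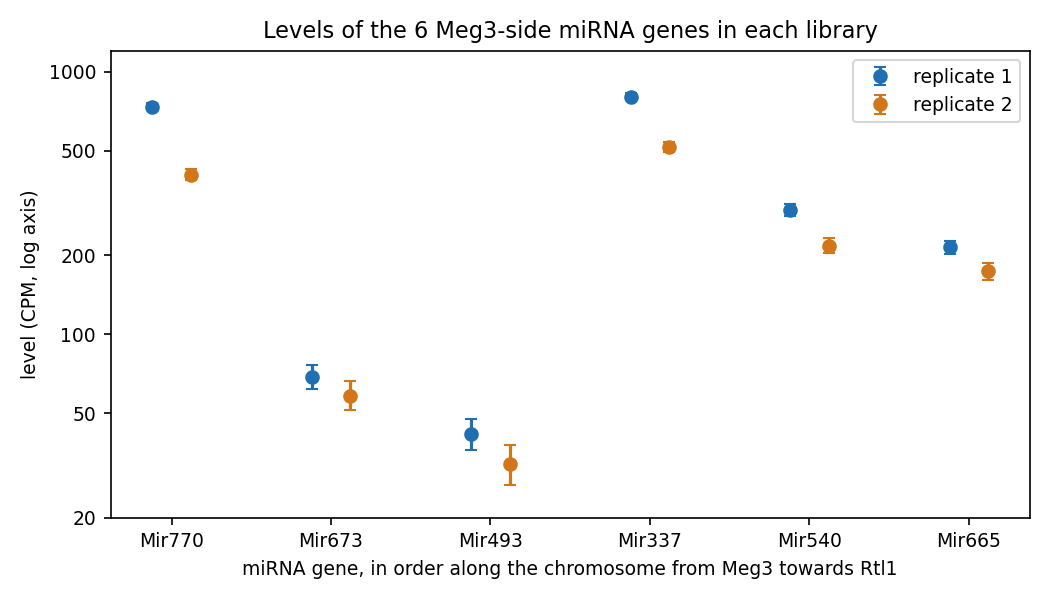
Level of each member in CPM on a log axis, in order along the chromosome from Meg3 towards Rtl1; points are the 2 libraries and bars are exact Poisson 95% intervals. Mir337 (803 and 517 CPM) and Mir770 (735 and 405 CPM) stand highest, Mir673 and Mir493 lie lowest, at 68.8 CPM or less, and replicate 1 is the higher library for all 6 genes.

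The order Mir337, Mir770, Mir540, Mir665, Mir673, Mir493 held in both libraries. Neighbours in this order were compared by the gap of their mean log2(CPM + 1), set against the larger of their SDs over the 2 replicates. Mir337 and Mir770 differed by 0.24, less than the SD of 0.61, and are not separated by this rule. The rule ignores that both genes were counted in the same libraries. Reads alone put Mir337 ahead in each library: it held 52.2% of the pair's counts in replicate 1 (exact Clopper-Pearson 95% interval 51.1% to 53.3%) and 56.1% in replicate 2 (54.5% to 57.7%). Mir770 was above Mir540 by 1.10 with the same SD. Mir540 was above Mir665 by 0.40 (SD 0.32), Mir665 above Mir673 by 1.59 (SD 0.21) and Mir673 above Mir493 by 0.78 (SD 0.26). With 2 values a gene, an exact permutation test cannot go below p = 0.333, and none was run.

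Position did not order the levels. The 2 members nearest Meg3's start, Mir770 at 22.7 kb and Mir673 at 31.0 kb, differed by 10.7-fold in replicate 1 and 6.93-fold in replicate 2. Within the 619 bases of the last 3 members, Mir337 was 2.70-fold above Mir540 in replicate 1 and 2.38-fold in replicate 2, and 3.75-fold and 2.98-fold above Mir665. Mir337 and Mir770 together held 71.2% of the members' counts in replicate 1 and 65.7% in replicate 2. Mir770 alone went from 34.0% to 28.9%, while Mir337 stayed at 37.2% and 36.9%, Mir540 stood at 13.8% and 15.5%, and Mir665 at 9.91% and 12.4%.

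The annotated miRNA genes next to the members, chosen by position between Meg3 and Rtl1, had few uniquely placed reads. Mir3070a had 13 and 7 counts and Mir3070b had 3 and 0, and each shares a stretch of 22 bases with the other, so their levels are uncertain. Mir1906-1, inside Meg3, had 0 counts in both libraries and shares 22 bases with Mir1906-2 on chromosome X, so its 0 sets no upper limit. No member shares 22 bases, or 18 bases, on either strand with another of the 1894 miRNA genes that have both a row and a sequence in GENCODE M21. Mir337 overlaps Mir3544 on the other strand, a gene that was not analysed here.

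In the whole Dlk1-Dio3 region, 58 annotated miRNA genes have a row between the start of Meg3 and the end of Mirg, and 46 reached 5 counts in each library. The 6 members are 10.3% of these rows. They held 3.23% of the region's gene-strand counts in replicate 1 (exact Clopper-Pearson 95% interval 3.17% to 3.29%) and 3.17% in replicate 2 (3.09% to 3.25%). The 37 genes from Mir379 to Mir410, led by Mir487b at 19263 ± 7210 CPM, held 77.9% ± 1.16 (SD, n = 2). The 11 genes from the start of Rtl1 up to Mir379, here the Rtl1 and Rian group, led by Mir127 at 5101 ± 869 CPM, held 18.8% ± 1.20. Mir337 ranked 14 and Mir770 ranked 16 of the region's genes by mean level, Mir540 and Mir665 ranked 24 and 26, and Mir673 and Mir493 ranked 35 and 40. The median member, at 225 CPM, was above the median of 94.5 CPM in the distal group and below the 347 CPM of the Rtl1 and Rian group. These differences between groups of genes were not tested.

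The genes elsewhere in the genome with the values most like those of Mir337 were found by the distance of log2(CPM + 1) over the 2 libraries. Mir7-1 was nearest at 860 and 486 CPM (distance 0.13), followed by Mir187 at 780 and 601 CPM (0.22) and Mir138-1 at 952 and 586 CPM (0.30). With 2 libraries this likeness is little more than a likeness of level.

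The libraries differed for most members beyond counting error. Of the 6 members, 4 were lower in replicate 2 and 0 were higher, by an exact binomial test (two-sided) that set the counts of the libraries against their TMM-scaled sizes (edgeR, trimmed mean of M values) and adjusted p over 466 genes by the Benjamini-Hochberg method. Of all genes tested, 21.9% were called lower in replicate 2 and 23.4% higher. These include genes with fewer counts than any member, which are harder to call. With the test limited to the 273 genes that reached 100 counts in each library, as all members did, 198 were called in either direction. Being called was therefore common at that depth and is not particular to the members. The members' median log2 ratio of replicate 2 over replicate 1 was -0.27, beside 0.01 over all genes tested. The test covers counting error, not the spread between pools, so it compares these libraries and not conditions.

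Mir770 had the lowest log2 ratio of the members at -0.72, with an interval from the exact binomial limits of -0.80 to -0.63 and an adjusted p of 3.06e-66. Of the 273 genes that reached 100 counts in each library, 2.56% had a lower ratio, and the middle 90% of these genes lay between -0.64 and 0.63. Among the 41 genes of the region at this depth, Mir770 had the lowest ratio, but others were close. The next, a gene of the group from Mir379 to Mir410, stood at -0.68, and Mir487b of that group at -0.64. Of the other members, Mir337 stood at -0.49 (-0.57 to -0.41, adjusted p 3.49e-37), rank 12 of the 41. Mir540 stood at -0.31 (-0.43 to -0.19, adjusted p 1.14e-06), rank 25, by the same exact test. Mir665 was called at -0.16 (-0.30 to -0.02), where the adjusted p was 0.0464 by the exact test and became 0.0690 without the count filter and 0.0598 with unstranded counts.

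Mir673 and Mir493 did not pass the exact test. Mir673 had a log2 ratio of -0.09 (-0.33 to 0.15, adjusted p 0.621) and Mir493 of -0.24 (-0.56 to 0.08, adjusted p 0.245). Their 591 and 344 reads in both libraries allow differences as large as that of Mir540. With unscaled library totals every member's ratio shifted by -0.14, and Mir493 was then called at -0.38 (adjusted p 0.0363 by the exact test), which made 5 members lower. Under that scaling 33.3% of all genes were called lower and 14.4% higher.

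The share of a gene's reads that came from replicate 2 compares members without any scaling. It was 31.2% for Mir770 (exact Clopper-Pearson 95% interval 29.9% to 32.4%), 34.6% for Mir337 (33.4% to 35.8%) and 37.5% for Mir540 (35.6% to 39.5%). Mir665 stood at 39.97% (37.7% to 42.3%), Mir493 at 38.7% (33.5% to 44.0%) and Mir673 at 41.1% (37.1% to 45.2%). The TMM-scaled library sizes give 42.7% for a gene with equal levels. The interval of Mir770 overlapped that of no other member. Within the stretch of 619 bases, the interval of Mir337 overlapped that of Mir540 but not that of Mir665, so close neighbours did not shift by the same factor beyond counting error.

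**Figure D2:**
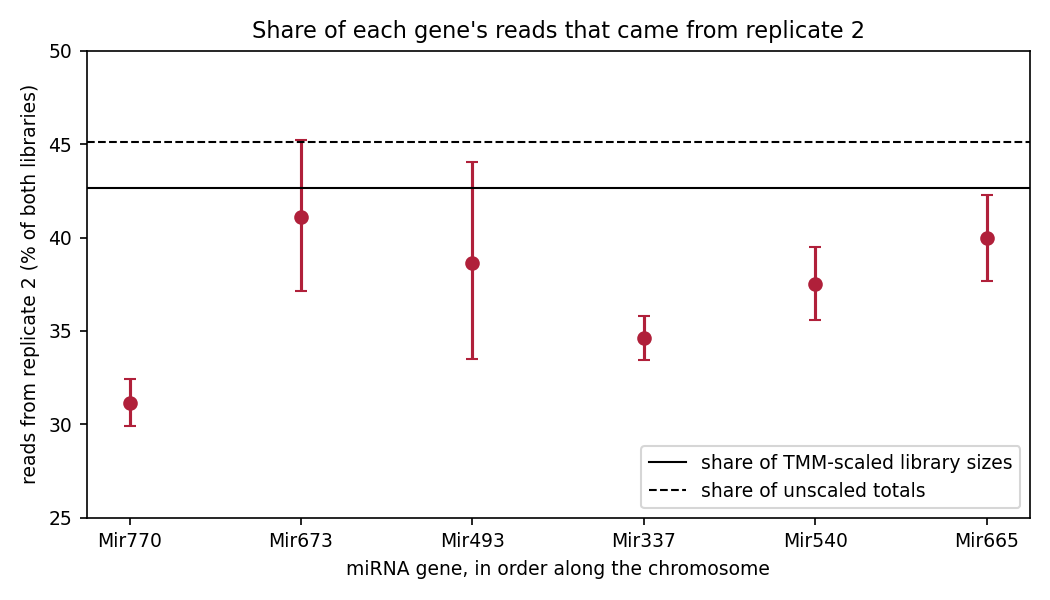
Percent of each member's reads in both libraries that came from replicate 2, in order along the chromosome, with exact Clopper-Pearson 95% intervals; the axis starts at 25%. The solid line is the share of the TMM-scaled library sizes (42.7%) and the dashed line that of the unscaled totals (45.1%); Mir770 lies lowest at 31.2% and only the intervals of Mir673 and Mir493 reach the solid line.

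Most other tested genes of the region were also lower in replicate 2. Of the 41 other genes of the region that were tested, 32 were lower and 0 were higher, with a median log2 ratio of -0.38, while the members' ratios ran from -0.72 to -0.09. In the Rtl1 and Rian group 8 of 8 tested genes were lower, and in the group from Mir379 to Mir410 24 of 31. In CPM, which is not TMM-scaled and so gives larger differences than the ratios above, the members' summed level was 1.54-fold higher in replicate 1. The group from Mir379 to Mir410 was also 1.54-fold higher and the Rtl1 and Rian group 1.38-fold. The members' share of the region therefore moved little, 3.20% ± 0.0422 (SD, n = 2), although their level moved. The list of 5 imprinted miRNA genes of other domains, led by Mir335, summed to 44362 CPM in replicate 1 and 36151 CPM in replicate 2. In CPM without TMM scaling, the sums of the neural, blood, liver and muscle lists given above were smaller in replicate 2. Those of the myeloid list and Mir126a were larger. Unscaled totals shift every log2 ratio by -0.14 against TMM, more than the neural sums differ, so the direction of the neural list depends on the scaling. The part of these lists in the result was not tested.

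**Figure D3:**
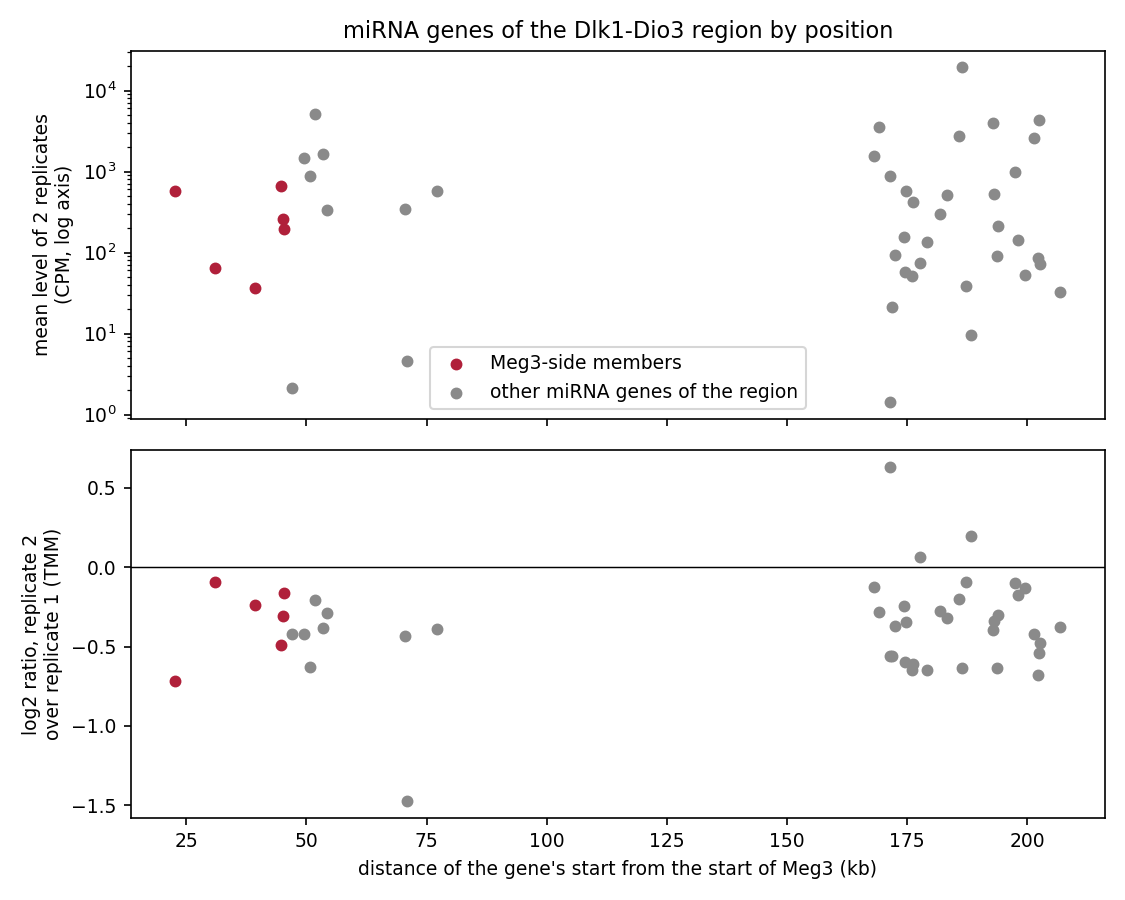
Mean level (CPM, log axis, top) and log2 ratio of replicate 2 over replicate 1 with TMM scaling (bottom) against the distance of each gene's start from the start of Meg3, for the 46 miRNA genes of the region that reached 5 counts in each library. The 6 members in red lie at 22.7 to 45.3 kb, at levels within the range of the other genes, and all have ratios below 0.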

How the data were processed

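Small RNA reads were counted per miRNA gene by the authors. The deposited values are raw read counts on mm10 with the GENCODE M4 annotation, per the deposited file descriptions. The sources used here name no aligner, counter or trimming. Each table has an unstranded column and a column for each strand. The first strand column held 98.1% and 98.3% of gene counts and was used. Multi-mapping reads, totalled apart from the genes, were 40.5% of all reads in replicate 1 and 43.3% in replicate 2, unmapped reads 19.1% and 15.2%, and reads outside listed genes 2.50% and 2.82%.

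Positions came from GENCODE M21 (GRCm38, which mm10 names) and sequences from RefSeq. TMM factors (edgeR 4.0.16, R 4.3.3) were computed from the 466 genes whose counts summed to 10 or more, with totals of all genes; 0.5 was added to counts before log2 ratios. The exact binomial test (scipy 1.17.1, threshold 0.05) was tested on simulated data. RNAfold was version 2.7.2. The quasi-likelihood test of edgeR needs replicates on both sides and was not used. The labels give the pools separate biosample records; p-values cover counting error only. Alternatives covered scaling (DESeq2 1.42.0 size factors, unscaled totals), filters, strand and each replicate left out.

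The members, lists and tests were chosen with earlier results of these data known. Named genes are the members, their neighbours between Meg3 and Rtl1, the most abundant gene of each other part of the region, the 3 genes nearest in level to the most abundant member, and genes that share a member's seed. Mir126a, Mir335 and Mir133a-1 come from the marker lists; Mir1906-2, Mir3544 and Gm24321 were named after their values or positions were seen.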

Additional observations from a re-analysis of the deposited data

Results flagged for a closer look

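Mir337 had reads on the strand opposite to the gene, which no comparison above used: 14 in replicate 1 and 4 in replicate 2, both above the limit of 3 counts that a count of 0 allows. The other 5 members had 0 opposite-strand reads in both libraries. GENCODE M21 places Mir3544 on that strand at 109585813 to 109585873, inside the span of Mir337, and Mir3544 has no row among those used here.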

How the results depend on the processing

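Over 20 results and 104 values recomputed under alternatives, 100 kept their direction and their side of the threshold or stayed within the spread of the replicates. With 2 replicates, a level or share with 1 replicate left out lies within that spread by construction. Those values are counted among the 100 but could not have failed. The count filters do not enter the log2 ratios, so the members' median ratio could not change under them either. With unstranded counts the members' share of the region moved from 3.20% to 2.85%. That column adds opposite-strand reads at minus-strand genes such as Gm24321 (20567 in replicate 1 and 9997 in replicate 2) to the region's sum. These reads lie on the plus strand, as the members do, and the share of 3.20% leaves them out of the region. Which small RNAs they come from was not tested. The calls of Mir665 and Mir493 changed as given above. Between 3 and 5 of the 6 members were called lower, and their median log2 ratio ran from -0.42 to -0.27. In all, 198 to 225 genes were called. The number tested changed with the filter and column. It was 198 of 273 with at least 100 counts in each library, 207 of 703 without the count filter and 225 of 479 with unstranded counts. TMM factors from all genes, an alternative chosen after seeing the data, gave 4 members and 213 of 466 genes. With unscaled totals 67 genes were called higher and 155 lower, beside 109 and 102 with TMM. Without replicate 1 or without replicate 2 the summed level was 1403 or 2159 CPM, a ratio of 1.54 that rests on 2 pools, and the test between libraries could not be run. No paired comparison of conditions was possible because both libraries belong to a single group.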
